A study of Rattus norvegicus with 18 samples.

Results

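The RNA of control adult rat testis was described from 3 poly(A) RNA-seq libraries of the control group, out of 6 RNA libraries and 18 samples in the series. The libraries were taken by their labels: testis of Wistar rats aged 8 weeks that belonged to the control group and not to the chronic sleep restriction group. The other 3 RNA libraries, from sleep-restricted rats, and the methylation libraries were not used, and no comparison with sleep restriction was made. The sources used here do not say whether each library came from its own animal or from pooled tissue, and by the submitters' codes control libraries 1 and 2 share all but the final character. All spreads below are therefore spreads between these libraries, which may be technical, and with 1 group there is nothing to test.

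The adult testis is built of seminiferous tubules, in which spermatogonia divide, spermatocytes pass through meiosis, and haploid spermatids reshape into sperm on the surface of Sertoli cells. Leydig cells between the tubules make testosterone and the hormone INSL3, and contractile myoid cells wrap the tubules. In spermatids the histones of the chromatin are replaced first by transition proteins and then by protamines, and many spermatid messages are made early and stored before they are translated. The protein CREM is a known activator of such haploid genes through the cAMP response element.

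The values are FPKM, sequenced fragments corrected for transcript length and for the size of the library, so that they can be compared between genes of different length. They were given for 7016 RefSeq transcripts, of which 6911 matched a gene symbol, for 6682 different genes. Summed FPKM was 130081, 135270 and 145923 in libraries 1 to 3, median FPKM lay between 3.81 and 3.97, and 275 to 423 transcripts per library were listed at 0. FPKM carry no read counts here, so the depth of each library is unknown. Library 3 stood apart from the others. Over the 5683 transcripts with a mean of at least 1 FPKM, the median absolute difference in log2(FPKM + 1) was 0.17 between libraries 1 and 2, 0.28 between 1 and 3, and 0.28 between 2 and 3. Library 3 was the farthest from the middle library at 49.6% of these transcripts.

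The 6 markers that stand for the tissue were all present. Tnp1 read 4298, 4411 and 7730 FPKM in libraries 1, 2 and 3, Tnp2 read 2668, 3186 and 3816, and Oaz3 read 2148, 2894 and 4374. These spermatid genes held ranks 1, 2 and 3 of the 7016 listed transcripts by mean. Genes that are not listed have no rank here, whatever their level. The Leydig cell hormone Insl3 read 33.0, 38.7 and 56.2 FPKM and ranked 631. Cyp17a1, the steroid 17-alpha-hydroxylase of androgen synthesis, read 18.9, 30.6 and 9.26 FPKM and ranked 1273. Ctsl, the lysosomal protease cathepsin L made by Sertoli cells, read 39.92, 41.15 and 40.05 FPKM and ranked 668. Tnp1, Tnp2 and Oaz3 therefore stood far above Insl3, Cyp17a1 and Ctsl in every library. Some other spermatid genes did not, such as Crem with 3.12, 2.96 and 2.74 FPKM. Bulk RNA cannot tell fewer cells of a type from less RNA per cell.

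To show the regulatory sequence beside the highest levels, the 130 bases before the annotated start are given for the 3 leading genes and for Prm1, a protamine gene that was high in library 3 only. They come from the RefSeq promoter table of build GRCr8, at chr9:82044279-82044408 (minus strand) for Tnp1, chr10:5386605-5386734 (plus strand) for Tnp2, chr2:184765177-184765306 (minus strand) for Oaz3 and chr10:5378610-5378739 (plus strand) for Prm1. Capitals mark a match to TGACGTCA, the palindromic cAMP response element, or to its variant TGACTTCA.
Tnp1: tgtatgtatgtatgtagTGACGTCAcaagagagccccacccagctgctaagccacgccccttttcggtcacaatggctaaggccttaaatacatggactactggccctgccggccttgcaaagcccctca
Tnp2: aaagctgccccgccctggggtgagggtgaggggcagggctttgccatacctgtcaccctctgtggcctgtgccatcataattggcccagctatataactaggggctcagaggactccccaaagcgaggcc
Oaz3: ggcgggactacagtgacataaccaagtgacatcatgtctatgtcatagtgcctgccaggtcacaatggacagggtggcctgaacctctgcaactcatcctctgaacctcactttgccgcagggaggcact
Prm1: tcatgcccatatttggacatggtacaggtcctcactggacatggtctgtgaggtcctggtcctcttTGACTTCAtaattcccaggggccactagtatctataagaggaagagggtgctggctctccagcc

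The match in Tnp1 began at position -113 and that in Prm1 at -64 relative to the annotated start, and the printed stretches of Tnp2 and Oaz3 held no match. Both strands were searched, in the 300-base windows from 250 bases before to 50 bases after the start, for 5565 genes with a promoter entry. TGACGTCA stood in the windows of 3 of the 100 most abundant genes, in 2.75% of the next 400, in 4.47% of the 1500 after those, in 3.73% of the remaining 3565 and in 1.91% of all 27457 promoters. TGACTTCA stood in 5 of the 100 most abundant genes, in 1% of the next 400 and in 1.72% of all promoters. TATAAA, the bases of a TATA box, was counted anywhere in the windows, so a match need not be a TATA box. It stood in 8 of the 100, in 8.5%, 7% and 6.31% of the 3 following classes and in 14.3% of all promoters. CAAGGTCA, a site of the steroidogenic factor NR5A1, stood in 1 of the 100 and in 1.48% of all promoters. The motifs TGACGTCA and CAAGGTCA can share bases at their ends, and each was counted by itself. With 100 genes in the highest class, 1 gene more or less moves its share by 1 percentage point. The full element was thus no more frequent among the 100 most abundant genes than among those 1500 genes.

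A few transcripts carried a large share of the listed FPKM. Tnp1 by itself held 3.997% of the sum of the means, the 4 highest transcripts 10.5%, the 10 highest 15.5%, the 100 highest 35.8% and the 1000 highest 76.3%. It took 254 transcripts to reach 50%. The mean of Tnp1, 5479.5 ± 1950 FPKM (SD, n = 3), was 1347 times the median of the means of all transcripts, 4.07 FPKM. Means reached 1000 FPKM at 8 transcripts, 100 FPKM at 239, 10 FPKM at 2098 and 1 FPKM at 5683. The share of the 10 highest was 13.9% in library 1, 14.1% in library 2 and 18.1% in library 3, so libraries 1 and 2 were close and library 3 was higher.

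**Figure D1:**
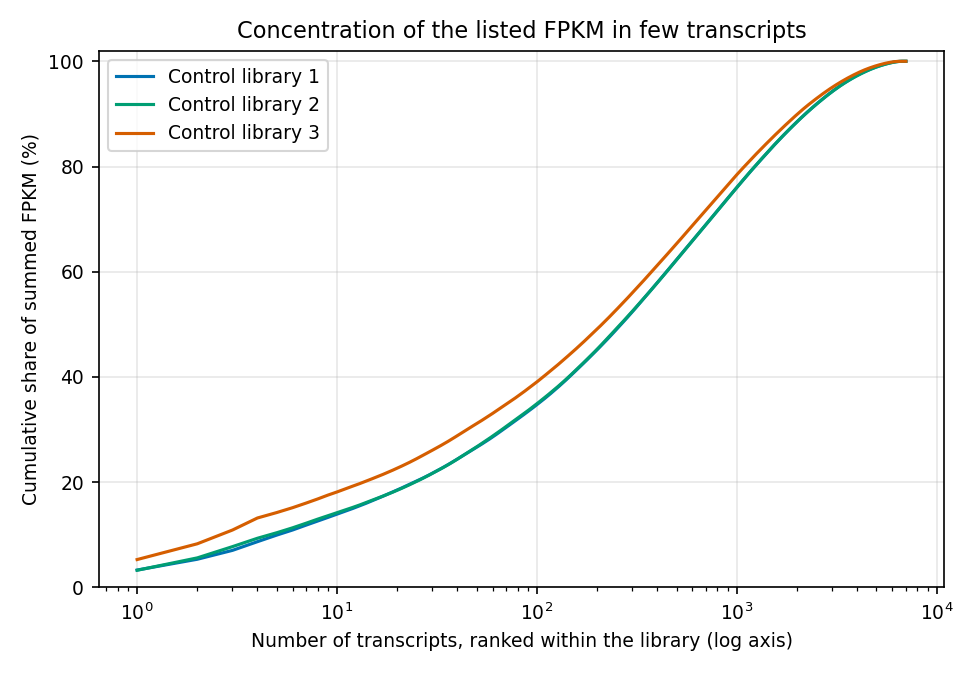
Cumulative share of the summed FPKM (vertical axis, percent) against the number of transcripts ranked within each library (horizontal log axis), 1 line per control library. Libraries 1 and 2 run together, with 34.7% and 34.9% of the sum in their own 100 highest transcripts, and library 3 runs above them with 39.1%.

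The head of the ranking consisted of transcripts known from spermatids. After the transition proteins and Oaz3, the germ cell antizyme that restrains polyamine synthesis, came Smcp, which encodes a cysteine-rich protein of the sperm mitochondrial capsule. Smcp read 2199, 2153 and 3341 FPKM. The order within this leading group was not fixed, since Smcp exceeded Oaz3 in library 1 and Oaz3 exceeded Tnp2 in library 3. These 4 transcripts were each highest in library 3, and libraries 1 and 2 did not reach its value for any of them.

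The next transcripts had libraries that lay closer together. Crisp2, a cysteine-rich secretory protein of acrosome and tail, read 1633, 1424 and 1514 FPKM. Fabp9, a fatty acid-binding protein of sperm, read 1258, 1172 and 1348 FPKM, and Gsg1, a germ cell membrane protein, read 1195, 1265 and 1266. The ranges of Fabp9 and Gsg1 overlapped, so their order was not resolved, and over libraries 1 and 2 alone Gsg1 (1230 FPKM) preceded Fabp9 (1215 FPKM). Pebp1, an inhibitor of the kinase Raf, read 1002, 1047 and 1071 FPKM, and Spa17, a protein of the sperm tail, read 903, 890.1 and 1141. Pabpc1, the cytoplasmic poly(A)-binding protein, closed the 10 highest with 808, 631 and 863 FPKM. Its range overlapped that of Hspb9, a testis small heat shock protein with 712, 774 and 687 FPKM, which took its place when library 3 was left out.

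Ranks 12 to 30 ran from 674 ± 77.7 FPKM (SD, n = 3) for C1h16orf82 down to 413 ± 67.4 for Dbil5, a testis relative of the acyl-CoA-binding protein. Several belong to the sperm tail and its motility. Ropn1l, a protein of the fibrous sheath, read 706, 706 and 511 FPKM and Odf2, a component of the outer dense fibres, read 463, 474 and 585 from the higher of its 2 transcripts. Dnaaf1, a factor for the assembly of axonemal dynein, read 434, 426 and 521 FPKM, and Cabs1, a calcium-binding sperm protein, read 505, 493 and 404. Gapdhs, the sperm glycolytic isozyme of glyceraldehyde-3-phosphate dehydrogenase, read 395, 487 and 541 FPKM. Mael, a protein of the piRNA pathway that silences transposons, read 423, 416 and 404 FPKM and had the smallest spread of the 30. Its coefficient of variation (CV, the SD as a percent of the mean) was 2.31%.

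Other transcripts of this range have roles in chromatin, translation or the cytoskeleton. Hmgb4, a testis high mobility group protein, read 385, 382 and 569.7 FPKM. Fhl4, a LIM-domain protein of the testis, read 654, 659.9 and 496 FPKM. Rpl39l1, a copy of the ribosomal protein L39 gene family, read 474, 449.7 and 613 FPKM, and its reads may be shared with near-identical copies. Rn18s, the 18S ribosomal RNA, read 563, 431 and 514 FPKM in these poly(A)-selected libraries. The remaining named transcripts of the 30 were Asrgl1, Cmtm2a, Prr30, Fam229b, Pdcd5l1, Spata20 and MGC93861, with means between 431.5 and 608 FPKM.

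**Figure D2:**
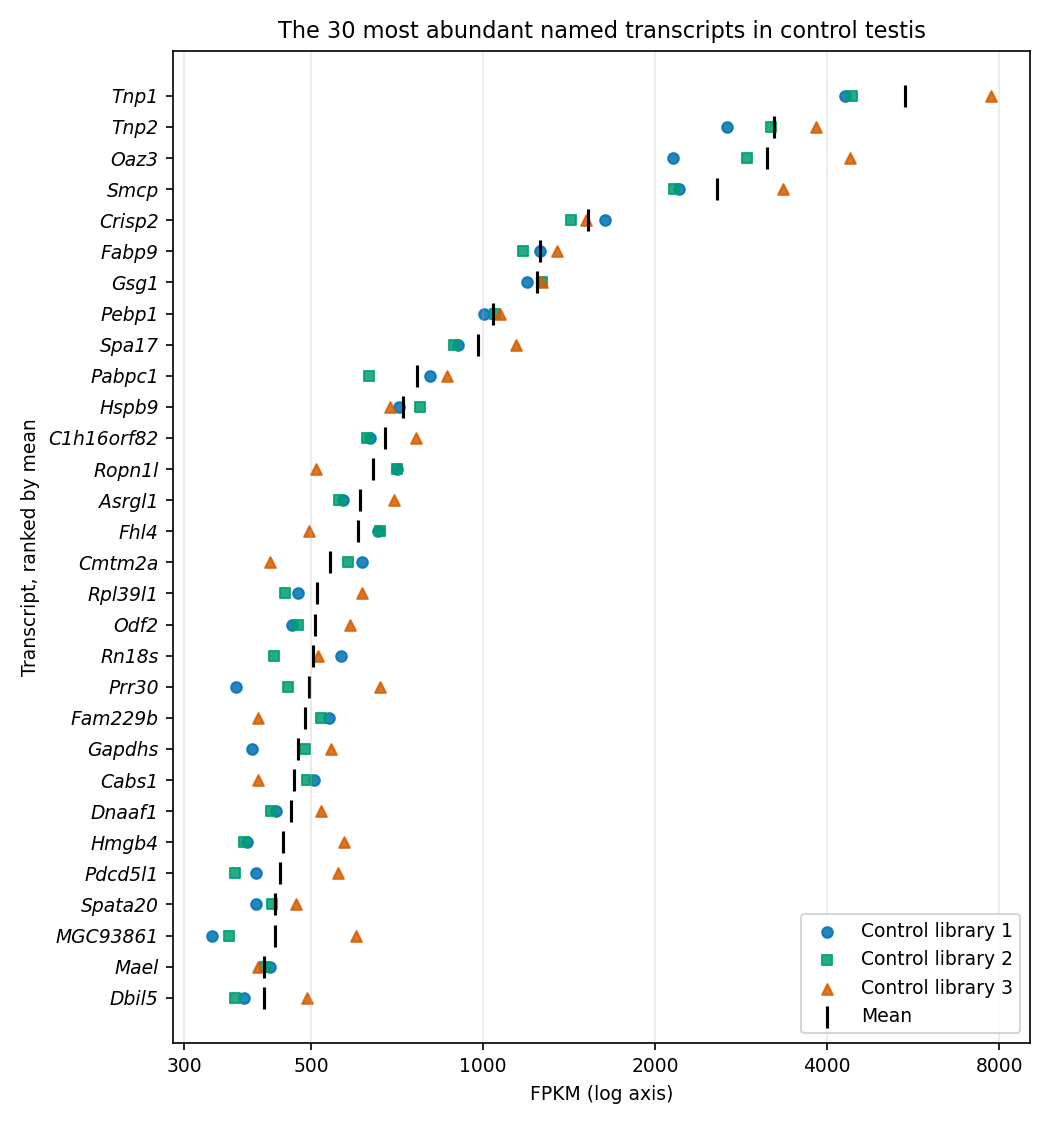
FPKM of the 30 most abundant named transcripts (horizontal log axis), ordered by mean, with 1 symbol per control library and a black tick at the mean. Library 3 is the highest at 21 of the 30, and at Mael the 3 libraries lie almost on the mean.

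All 30 were within the 50 highest transcripts of every library. Their CVs ran from 2.31% to 36.1% with a median of 15.2%, and the highest library exceeded the lowest by at most 2.04 times. Among the named genes with a mean of at least 1 FPKM, library 3 was the highest at 36.2% and the lowest at 42.7%. Of the 10, 30 and 100 highest by mean, 9, 21 and 75 were in the same class in every single library. When library 3 was left out of the mean, 9, 27 and 91 stayed in their class, a comparison of means that share libraries. Libraries 1 and 2 had 90 of their own 100 highest transcripts in common, libraries 1 and 3 had 78, and libraries 2 and 3 had 79.

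Marker lists of 12 cell types and neighbouring tissues were then read in the 3 libraries. The elongating spermatid list, genes of late spermatids, had 20 of 26 members matched by name among the listed transcripts. They summed to 14805, 16438 and 24373 FPKM, which was 13.5% of all listed FPKM. Hils1, a spermatid linker histone with 249.8, 290.4 and 280.5 FPKM, was not matched to the list and is not in these sums. Library 3 was the highest at 12 of the 20, against 36.2% of all named genes. Besides the leaders already given, Spem1, a protein needed for removal of the sperm cytoplasm, read 137, 143 and 137 FPKM. Tssk2, a testis-specific serine kinase, read 127, 118 and 127 FPKM, and Akap3, an anchoring protein of the fibrous sheath, read 45.5, 40.3 and 52.9. Spem1 and Tssk2 were level across the libraries, with CVs of 2.51% and 3.95%, unlike Tnp1 and Oaz3 of the same list.

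The protamines, which pack DNA in the sperm head, had the widest gap between libraries on this list. Prm1 read 0.093, 0.098 and 877 FPKM, and Prm2 read 0.7502, 0.4071 and 328. Prm3, their neighbour gene, read 73.5, 22.3 and 110 FPKM. Both Prm1 and Prm2 were near 0 in libraries 1 and 2 and among the abundant transcripts in library 3, where Prm1 ranked 10. Such values near 0 can be failed estimates and need not mean absent RNA, which was not tested. The transition proteins, which act in the same cells just before the protamines, differed by less than 2-fold between libraries. Without Prm1, Prm2 and Prm3 the list still summed to 14730, 16415 and 23058 FPKM, so library 3 remained the highest. Most of these sums lay in Tnp1, Tnp2, Oaz3 and Smcp. Those 4 transcripts held 8.70%, 9.35% and 13.2% of all listed FPKM in libraries 1 to 3, so the higher sum does not describe every member.

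The round spermatid list, genes of the forming acrosome and early haploid cells, had 12 of 20 members listed and summed to 1008, 1024 and 1409 FPKM. Dkkl1, a protein of the acrosome, read 340, 356 and 531 FPKM and Tcp11, a protein linked to sperm motility, read 194, 220 and 339. Acrbp, which binds the precursor of the protease acrosin, read 113, 116 and 138 FPKM, while Acr, acrosin itself, read 52.8, 16.4 and 77.7. Zpbp2, a zona pellucida-binding protein, read 25.27, 26.06 and 25.96 FPKM. Library 3 was the highest at 6 of the 12 members, against 36.2% of all named genes, and the lowest at 4, against 42.7%. Dkkl1 and Tcp11 had the largest FPKM differences behind the higher sum.

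Spermatocyte genes stood lower, with 16 of 24 members listed and sums of 846, 840.2 and 737 FPKM. Mael made up about the same amount as all the other members, whose mean sum was 394 FPKM. Sycp3, a component of the synaptonemal complex that joins homologous chromosomes, read 131, 136 and 60.1 FPKM. Hspa2, a heat shock protein needed in meiosis, read 77.4, 81.6 and 73.0 FPKM, Smc1b, a meiotic cohesin subunit, read 73.3, 65.3 and 76.6, and Syce1, of the central element, read 46.8, 45.2 and 44.0. Sycp3 alone of these was well below the other libraries in library 3. Further down the list, Hormad1 read 32.5, 29.0 and 20.4 FPKM and Piwil2 read 19.4, 19.1 and 13.5, also lower there. Library 3 was the lowest at 9 of the 14 members with a mean of at least 1 FPKM, against 42.7% of all named genes. It was the highest at 3, against 36.2%. At the premeiotic end, 4 of 15 spermatogonial genes were listed and summed to 39.5, 53.3 and 42.6 FPKM. Uchl1, a ubiquitin hydrolase of spermatogonia, read 24.7, 27.9 and 31.2 FPKM, and Id4, a marker of their stem cell fraction, read 8.62, 19.2 and 7.29. Sohlh2 read 3.57, 3.31 and 2.72 FPKM and Etv5 read 2.58, 2.94 and 1.40, and both encode transcription factors.

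Sertoli cell genes were the most even of the cell type lists. With 12 of 21 members listed they summed to 162, 168 and 153 FPKM, a mean of 161 ± 7.44 (SD, n = 3). Cst9l, a cystatin, read 30.2, 27.4 and 27.3 FPKM, and Cldn11, the claudin of the blood-testis barrier, read 21.34, 22.01 and 19.08. Vim, the intermediate filament vimentin, read 23.2, 23.2 and 23.1 FPKM, Shbg, the androgen-binding protein, read 15.7, 16.6 and 16.6, and Ctsl was given above. The low end was less even, and Gata4, a transcription factor, read 1.51, 1.47 and 0.205 FPKM. Library 3 was the lowest at 9 of the 11 members with a mean of at least 1 FPKM, against 42.7% of all named genes.

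Leydig cell genes, 11 of 16 listed, summed to 94.9, 119 and 97.1 FPKM, but the members moved apart. Insl3, the hormone of testis descent and of mature Leydig cells, was highest in library 3, whereas most steroid pathway genes were lowest there. Cyp11a1, which cuts the side chain of cholesterol, read 9.96, 13.7 and 7.82 FPKM. Star, which carries cholesterol into the mitochondrion, read 4.49, 5.58 and 2.78 FPKM, and Scarb1, a receptor for cholesterol uptake, read 3.96, 5.94 and 1.57. Hsd11b1, an enzyme of glucocorticoid metabolism, read 13.3, 13.2 and 10.6 FPKM. The ratio of Insl3 to Cyp17a1 was 1.74, 1.27 and 6.07 in libraries 1 to 3, and the ratio of Insl3 to Star was 7.35, 6.94 and 20.2. Library 3 was the lowest at 8 of the 11 members, against 42.7% of all named genes, and the highest at Insl3 and Nr5a1.

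The listed markers of other cells of the tissue had low sums, which do not measure how much RNA those cells left. Of the myoid list 6 of 9 members were listed, and they summed to 21.6, 19.3 and 26.9 FPKM. Its smooth muscle genes Myh11 (12.6, 10.8 and 14.2 FPKM), Tpm2 (3.57, 3.68 and 5.99), Tagln (2.34, 2.97 and 3.50), Des (1.28, 1.11 and 1.49) and Cnn1 (0.98, 0.81 and 1.71) were each highest in library 3, against 36.2% of all named genes. Actg2 read 0.92 FPKM in library 1 and was listed at 0 in the others. These are proteins of the contractile apparatus and its filaments.

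Of the stromal list 7 of 10 members were listed. Mgp, a matrix protein that restrains calcification, read 20.6, 18.5 and 36.1 FPKM, and Sparc, a collagen-binding matrix protein, read 12.0, 9.80 and 12.2. Dcn, Col3a1, Col1a1, Col1a2 and Pdgfra stayed below 5 FPKM, and Pdgfra was listed at 0 in library 1. Of the macrophage list 9 of 14 were listed, led by the lysozyme Lyz2 (7.05, 6.58 and 6.54 FPKM), the mannose receptor Mrc1 (6.74, 5.11 and 4.92) and Cd74 (6.19, 3.73 and 4.74), the invariant chain of antigen presentation. The other 6 stayed below 2 FPKM in every library.

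Blood was seen through Hba-a1, an alpha globin, which read 5.32, 27.4 and 28.9 FPKM. Hbb-b1 stayed below 1 FPKM, Hba-a3 did so too and was listed at 0 in library 2, and Hbb was listed at 0 in every library, although globin copies can share reads. None of the 10 endothelial genes and none of the 11 epididymal genes on the lists was among the transcripts analysed here. Of the 100 most abundant transcripts, 10 were on the elongating spermatid list, 2 on the round spermatid list, 1 on the spermatocyte list and 0 on a list of somatic cells. Hils1, also among the 100, was not matched to a list and is not in these counts.

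**Figure D3:**
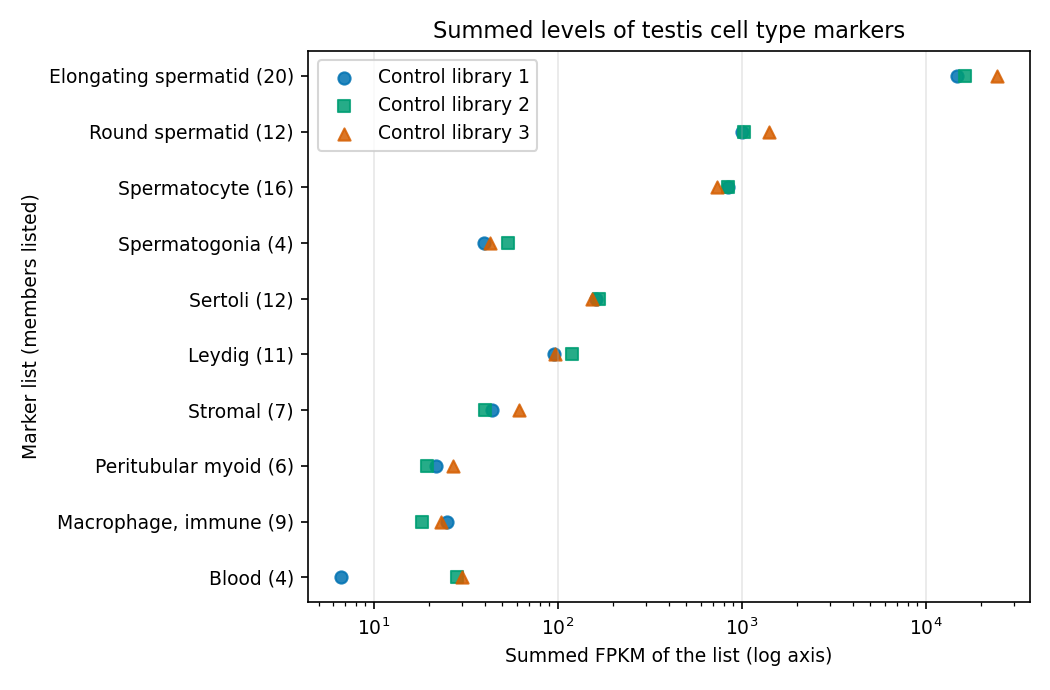
Summed FPKM of the marker genes of each cell type (horizontal log axis), with the number of listed members in brackets and 1 symbol per control library. The elongating spermatid sum lies between 14805 and 24373 FPKM, above every other list, and the Leydig and Sertoli sums lie between 94.9 and 168 FPKM.

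Germ cells use their own isozymes of several metabolic and housekeeping enzymes. Which form counts as germ cell or somatic was set by the list of pairs and was not tested, and some forms may be used by other cells too. Related gene copies can share reads here as well, so single values are uncertain. Of 12 pairs with both genes listed, the form set as germ cell was higher in every library in 7, the form set as somatic in 3, and neither in 2. Of the 7, the calcineurin subunit Ppp3cc (3.76, 14.9 and 2.18 FPKM), rests on its somatic form Ppp3ca being listed at 0 in libraries 2 and 3. Cyct, the testis cytochrome c of the respiratory chain, averaged 40.2 ± 7.69 FPKM and its somatic form Cycs 6.00 ± 1.55 (SD, n = 3). Cox8c, a germ cell subunit of cytochrome oxidase, averaged 335 ± 28.0 FPKM and Cox8a 4.85 ± 3.70. For glycolysis, Pgam2 averaged 88.1 ± 11.0 FPKM against 13.6 ± 0.483 for Pgam1, both phosphoglycerate mutases, and Aldoart2 averaged 75.9 ± 9.07 against 24.2 ± 3.66 for Aldoa, both aldolases. The aldolase ratio was the steadiest, at 3.21, 3.02 and 3.22.

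A heat shock pair followed the same order. Hspa1l, a testis heat shock protein, averaged 190.5 ± 27.9 against 6.90 ± 0.280 for Hspa8. The calcium-binding chaperones went the other way: Calr averaged 143 ± 6.34 FPKM against 113 ± 8.31 for Calr3, and Canx averaged 29.1 ± 2.63 against 1.81 ± 0.591 for Clgn. The enolase Eno1 averaged 114 ± 10.9 FPKM, while Eno4 stayed below 1. Pgk2, the phosphoglycerate kinase of spermatids, averaged 3.20 ± 0.916 FPKM and Pgk1 4.16 ± 0.727, so these did not differ beyond their spread. Ppp3r2, a calcineurin subunit of sperm, read 19.1, 143 and 2.78 FPKM, and its order against Ppp3r1 changed between libraries.

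Genes that activate or store spermatid messages were read next, with 13 of 18 listed. Ybx2, a Y-box protein that binds and stores mRNA in germ cells, read 350.1, 466 and 388 FPKM, and its relative Ybx3 read 256, 251 and 238. Ddx25, an RNA helicase of germ cells, read 144, 149.9 and 112 FPKM. Fhl5, a coactivator of CREM, read 118, 131 and 119 FPKM, and Gtf2a1l, the germ cell form of a general transcription factor, read 91.5, 85.8 and 84.6. Crem itself was low, at 3.12, 2.96 and 2.74 FPKM over its 2 listed transcripts. Papolb, the testis poly(A) polymerase, read 179, 12.5 and 12.0 FPKM, high in library 1 only.

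Among the general machines of the cell, cytosolic ribosomal proteins took the largest share of the function lists, with 77 genes. They summed to 4146, 3919 and 5044 FPKM, or 3.19% of all listed FPKM. Rps29 read 161, 170.2 and 225 FPKM and Rpl31 read 148, 149 and 223. Library 3 was the highest at 46 of the 76 with a mean of at least 1 FPKM, against 36.2% of all named genes. Processed copies of these genes can share reads, so single members are uncertain. The 70 genes of oxidative phosphorylation summed to 2709, 2804 and 3036 FPKM. Atp5f1b, the beta subunit of ATP synthase, read 185, 195 and 162 FPKM, and Cox6b2, a testis subunit of cytochrome oxidase, read 173, 178 and 296.

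The sums of 3 other machines were almost level. The 38 proteasome genes, which degrade tagged proteins, summed to 966, 1014 and 1004 FPKM, led by the ATPase Psmc3 with 117, 160.0 and 188. The 33 dynein and kinesin motor genes summed to 849, 858 and 824 FPKM, led by the light chain Dynll1 with 156, 166 and 196. The 63 chaperone genes summed to 3271, 3417 and 3259.5 FPKM, and Hsp90aa1, an abundant cytosolic chaperone, read 242, 237 and 239. At 6 of the 38 chaperone genes with a mean of at least 10 FPKM the highest library was at least 4 times the lowest on FPKM + 1, against 5.97% of all named genes at that level. Tubulins, 11 genes, summed to 828, 919 and 965 FPKM with Tubb4b, a beta tubulin of axonemes, at 355, 358 and 420.3. Translation factors, 47 genes, summed to 1441, 1439.9 and 1286 FPKM, with the elongation factor Eef2 at 196, 201 and 172.

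A level sum hid large differences among the subunits of the chaperonin ring that folds actin and tubulin, named here after their values were seen. Tcp1 read 104, 111 and 104 FPKM and Cct7 read 57.6, 58.2 and 47.2. Cct5 read 7.12, 179 and 125 FPKM and Cct3 read 12.4, 135 and 120.3, both low in library 1. Cct4 read 164, 41.1 and 101.4 FPKM, low in library 2, and Cct2 read 39.0, 28.5 and 4.45, low in library 3. The subunits thus did not share 1 odd library.

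Spread depended on level. The median CV was 86.7% for transcripts with means under 1 FPKM, 32.7% from 1 to 2 FPKM, 20.6% from 2 to 5, 16.6% from 5 to 10, 13.4% from 10 to 50, 11.3% from 50 to 100 and 12.0% from 100 FPKM. It fell no further above 50 FPKM. Over all transcripts with a mean of at least 1 FPKM the median was 18.2%, and over libraries 1 and 2 alone it was 9.78%. Of the 100 highest transcripts 37 had a CV under 10%, 35 one of 10 to 20%, 20 one of 20 to 40% and 8 one of at least 40%. Among the 8 were Phf7, Prm1, Gstm5, Rps15, Actb, Stard6 and Calm3, named after their values were seen.

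**Figure D4:**
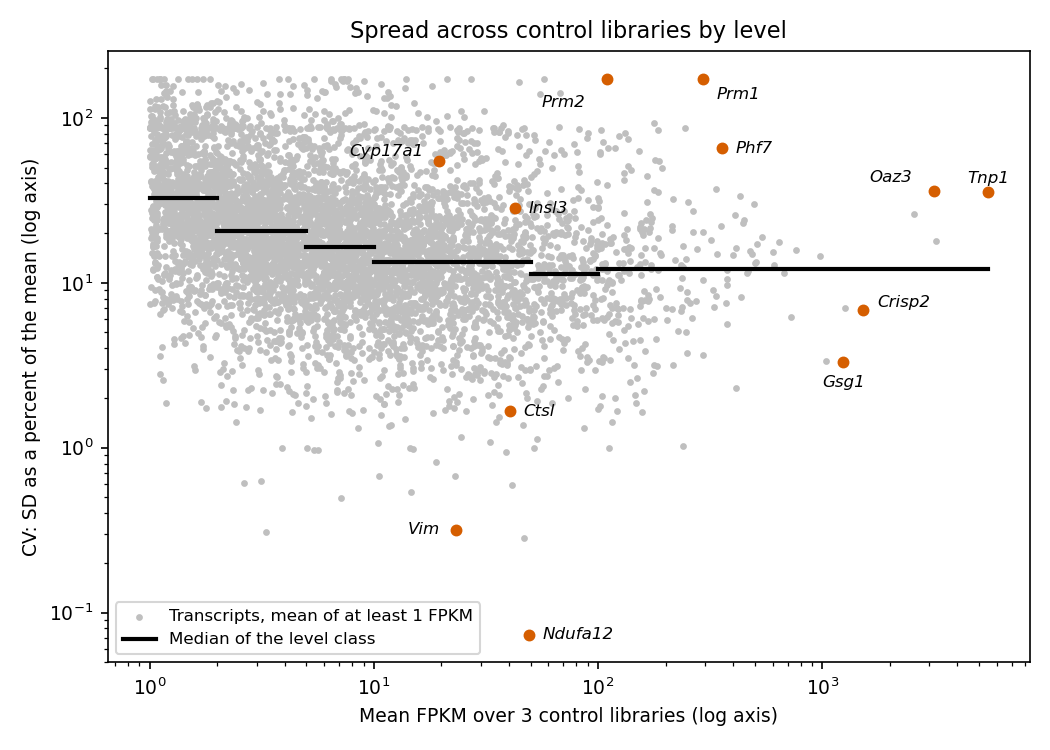
CV across the 3 control libraries (vertical log axis, percent) against mean FPKM (horizontal log axis) for transcripts with a mean of at least 1 FPKM, with black lines at the median of each level class. Class medians fall from 32.7% to about 12%, while Prm1 and Prm2 lie near the ceiling of 173% and Ndufa12 lies at 0.0734%.

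The steadiest transcripts with a mean of at least 10 FPKM came from several parts of the cell. Ndufa12, a subunit of respiratory complex I, read 49.2, 49.3 and 49.2 FPKM. Dnali1, a light chain of axonemal dynein, read 46.8, 47.0 and 46.8, and Ttbk1, a tau tubulin kinase, read 41.1, 41.5 and 41.0. Vim, Atp6v0e1, Cacybp, Snapc2, Itpka, Dcaf6 and Txn2 completed the 10. They were picked as the extremes of this measure, and no test was made.

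The 10 transcripts with the largest CV at this level were all high in library 3 only. After the protamines, Mea1, a gene of male germ cells, read 1.79, 2.15 and 129 FPKM, and Izumo1, the sperm protein that binds the egg, read 1.06, 0.482 and 30.7. Ik was listed at 0 in libraries 1 and 2 and at 63.3 FPKM in library 3. Mtfr1, Ubxn1, Cnot1, Mir1956 and a transcript with no symbol matched were the others. A CV over 3 libraries cannot exceed 173%, and reaches it where 1 library holds the whole signal. A transcript missing from 1 library and level in the others has a lower CV, as Ptges3 with 86.6%. The largest CVs therefore fall on transcripts high in 1 library. The 10 also reached a mean of at least 10 FPKM only through library 3.

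Large differences were not limited to library 3. On FPKM + 1, the highest library was at least 4 times the lowest at 125 of the 2098 transcripts with a mean of at least 10 FPKM, or 5.96%, and under 1.5 times at 1579, or 75.3%. Each of the 125 was assigned to the library farthest from the middle library, also where the values were graded over the libraries. The assigned library was low at 37 transcripts for library 1, 26 for library 2 and 33 for library 3. It was high at 4, 6 and 19 for libraries 1, 2 and 3. The mean of at least 10 FPKM passes a transcript low in 1 library more easily than one high in 1 library, so the low and high counts cannot be set against each other. Tram1, a protein of the endoplasmic reticulum, was listed at 0 in library 1 and at 112 and 88.9 FPKM in libraries 2 and 3. Ptges3, a cochaperone of HSP90, read 52.0 and 50.1 FPKM and was listed at 0 in library 3, and Ranbp2, a nuclear pore protein, read 22.1 and 18.6 FPKM in libraries 1 and 3 and was listed at 0 in library 2. A value of exactly 0 in such files can be a failed estimate, and no fold is printed against it. The same may hold for values near 0 beside high ones, such as those of Prm1 and Prm2, and was not tested.

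Library 3 also differed in direction by gene group. The median difference in log2(FPKM + 1) of library 3 from the mean of libraries 1 and 2 was -0.03 over all named genes. It was 0.29 for elongating spermatid genes, 0.18 for round spermatid genes, -0.11 for spermatocyte genes, -0.17 for Sertoli genes and -0.52 for Leydig genes. It was -0.45 for the 4 spermatogonial genes, 0.31 for myoid genes, 0.21 for stromal genes and -0.02 for macrophage genes, so the lists of somatic cells did not share a direction. Ribosomal protein genes had a median of 0.29, and proteasome genes one of -0.07. With 1 library on one side they describe library 3 only. Cell makeup, RNA quality and library preparation cannot be told apart here, and their part in the result was not tested.

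**Figure D5:**
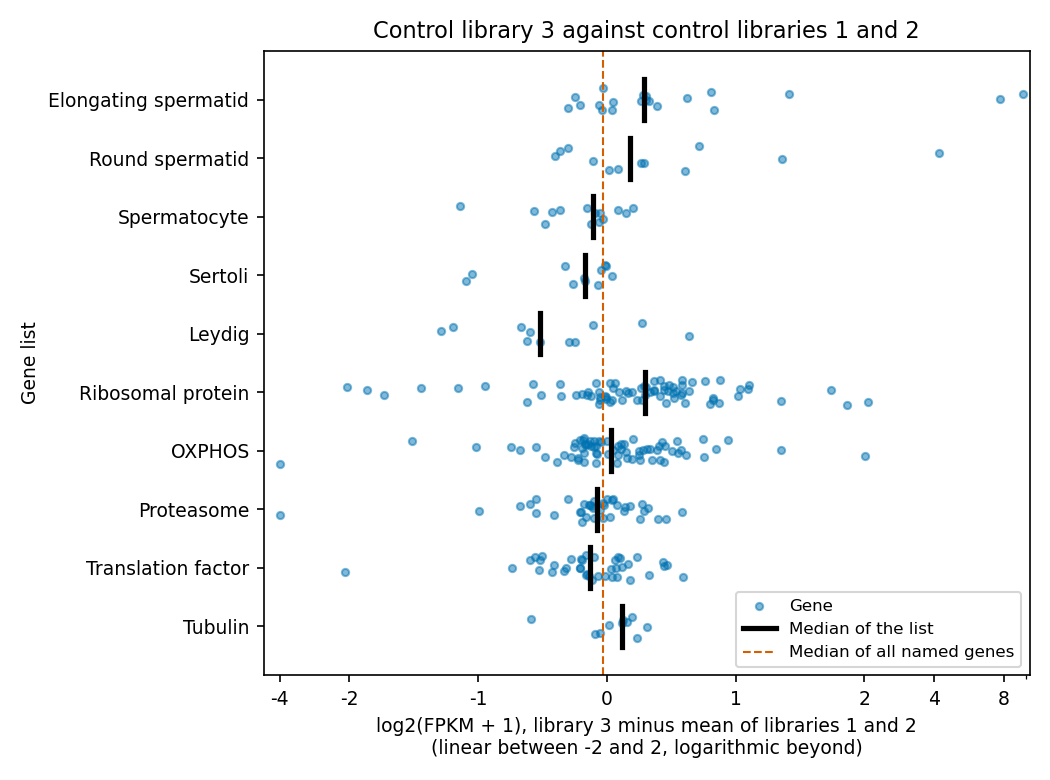
Difference in log2(FPKM + 1) between control library 3 and the mean of control libraries 1 and 2 (horizontal axis, linear in the middle and logarithmic at both ends) for each gene of 10 lists, with the list median as a black bar and the median of all named genes as a dashed line. The elongating spermatid bar lies at 0.29 and the Leydig bar at -0.52, either side of the dashed line at -0.03.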

How the data were processed

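Poly(A) RNA was isolated and made into libraries from testis, per the labels' protocols, which also give the quality limits for the RNA. The authors deposited 1 table of FPKM per RefSeq transcript; Trimmomatic, HISAT2, StringTie and the build rn6 are named in the submitters' processing notes, with versions, annotation, strand and the choice of transcripts not given in the sources used here. Of its values 1.74% of transcripts carry more than 6 decimals, so some may be averages of several entries. Read counts cannot be had from this table, so depth is unknown and no count test was made.

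The 3 control columns were read as deposited, with Python 3.11.15, pandas 2.3.3 and numpy 2.4.6. Symbols came from the RefSeq table of GRCr8 by transcript identifier, for 6911 of 7016 transcripts, and rows of 1 gene were summed for the gene lists. Transcripts were ranked by mean FPKM, and spread was given as the sample SD, the CV and log2(FPKM + 1) with a pseudocount of 1, for means of at least 1 or 10 FPKM. These steps were tested on simulated data. The text names the 6 markers, the 30 highest transcripts with a symbol, up to 5 leading members per list (all in lists of 8 or fewer listed), isozyme pairs, and the 10 largest and 10 smallest CVs at means of at least 10 FPKM. Other genes were chosen after their values were seen: further members of the lists, chaperonin subunits, transcripts listed at 0 and the genes of the closing section. Members and lists were chosen with earlier results of these data known. Columns of the sleep-restricted group and the methylation tables were not used here, and a few genes are not reported here. Alternatives changed the filter, scaling, pseudocount, ranking and the libraries included.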

Additional observations from a re-analysis of the deposited data

How the results depend on the processing

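No paired analysis was possible because 1 group is described and no groups are compared. Of 49 values under other settings than a left-out library, 12 moved by more than their spread and are given here. The count of 5683 transcripts with a mean of at least 1 FPKM, which has no spread, became 4898 when 1 FPKM was asked of all 3 libraries and 6929 when each library was rescaled to a higher common total, which raises every value. The median CV of 18.2% became 14.0% for means of at least 5 FPKM. Leaving out each library in turn gave 9.78% to 16.7%, lowest without library 3, and moved the median SD of log2(FPKM + 1) from 0.21 to between 0.12 and 0.20. With 2 libraries left, both measures rest on 1 difference. The same step gave 14.0% to 16.2% for the 10 highest transcripts, 34.7% to 36.6% for the 100 highest, and 5607 to 5684 transcripts with a mean of at least 1 FPKM.

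Leaving out the highest member must lower a marker sum, so this step shows only how much that member held. Without it the mean sums were 17.2 FPKM for spermatogonia, 394 for spermatocytes, 738 for round spermatids, 13059 for elongating spermatids, 120.4 for Sertoli cells, 61.1 for Leydig cells, 10.1 for myoid cells, 23.5 for stroma, 15.4 for macrophages and 1.08 for blood. Leaving out members with a 4-fold range, chosen after seeing the data, took nothing from 7 of the 10 sums and is no check of those. It gave 1087 FPKM for round spermatids, 18068 for elongating spermatids and 1.08 for blood. Leaving out each library in turn gave 41.0 to 47.9, 789 to 843, 1016 to 1217, 15621 to 20405, 157 to 165, 96.0 to 108, 20.5 to 24.3, 42.1 to 52.7, 20.7 to 24.0 and 17.4 to 29.1 FPKM in the same order.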

Other observations

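Below the 30 highest transcripts stood several genes of redox and metal handling. Gpx4, the selenium-dependent peroxidase that also builds the sperm midpiece, read 342, 382 and 397 FPKM from its main transcript. Selenop, the selenium transport protein, read 250.1, 267 and 228 FPKM, Fth1, the ferritin heavy chain, read 288, 311 and 226, and Mt1, a metallothionein, read 251, 277 and 479. Mt1 was highest in library 3 and Fth1 lowest there. Gstm5, a glutathione transferase, read 386, 349 and 0.141 FPKM. Phf7, a chromatin reader of germ cells, read 486, 494 and 87.4 FPKM, also low in library 3. Stard6, a lipid transfer protein of germ cells, read 6.26, 263 and 287 FPKM, low in library 1. Hils1, a spermatid linker histone, read 249.8, 290.4 and 280.5 FPKM.

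Several transcripts were listed for 188 genes. Of the 95 with a summed mean of at least 10 FPKM, 84 had the same leading transcript in every library and 11 did not. The leading transcript held over 75% of the gene's FPKM in all libraries at 49 genes, and its share moved by a median of 5.64 percentage points between libraries. For Odf2 it held 69.4%, 60.8% and 67.4%, for Gpx4 59.3%, 60.2% and 65.5%, and for Atp1a4 79.3%, 79.7% and 77.8%. Zc3h14, a poly(A)-binding zinc finger protein, varied more, at 97.8%, 28.0% and 90.0%.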
